A study of Mus musculus with 9 samples.

Results

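Crh, Avp and Pmch encode the precursors of corticotropin-releasing hormone (CRH), vasopressin and melanin-concentrating hormone (MCH), and are the 3 genes described here among 24378 gene rows counted in 9 single cells. They were chosen by their measured counts in these cells, as were the 2 cells with 10 or more Crh molecules, cell 5 and cell 9, so their levels below are descriptions without a test. The source was the hypothalamic paraventricular region of juvenile C57Bl6/N mice, 21 to 28 days old, and every cell carries the same label, secretagogin-positive; no genotype, treatment or control group is given. They are called cell 1 to cell 9 after their labels. The labels do not tie cells to animals. The 9 cells are therefore 1 sample, cells are not replicates, and no p-value was computed.

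The stress axis starts in the paraventricular nucleus. Its parvocellular neurons release CRH, and often vasopressin with it, into the portal blood of the median eminence, where both act on pituitary cells that secrete ACTH; ACTH in turn drives the adrenal output of glucocorticoids, which feed back on these neurons. Vasopressin is also the antidiuretic hormone of magnocellular neurons, which send their axons to the posterior pituitary. MCH is best known from neurons of the lateral hypothalamus and zona incerta, where it takes part in the control of feeding and sleep. All 3 hormones are cut from longer precursors and packed into dense-core granules.

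The genes lie on different chromosomes (GENCODE M21, GRCm38/mm10). Crh (ENSMUSG00000049796.4) lies on chromosome 3 at 19693401 to 19695396, on the minus strand, with 2 exons. Avp (ENSMUSG00000037727.6) lies on chromosome 2 at 130580620 to 130582554, on the minus strand, with 3 exons, and its 3′ end faces that of the oxytocin gene Oxt across a gap of 3565 bases. Pmch (ENSMUSG00000035383.7) lies on chromosome 10 at 88091072 to 88092375, on the plus strand, with 3 exons. Parpbp, a gene on the opposite strand, covers 944 bases of Pmch, and 435 of these are exonic in both genes. No label says whether reads were counted by strand, and otherwise reads of this overlap cannot be told apart by gene; Parpbp had 0 molecules in all 9 cells. No annotated gene overlaps Crh or Avp.

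RefSeq promoter windows (GRCm38.p6) matched 2 of the 3 genes, and the 250 bases before the annotated start are shown for both, as the DNA next to a pair of genes found together in cells 5 and 9. Capitals mark a match on either strand to TGANTCA, a loose AP-1 pattern with any base at N, the E-box CACGTG or the TATA box TATAAA. The Avp window is at chr2:130582589-130582838 on the minus strand and the Pmch window at chr10:88090822-88091071 on the plus strand.
Avp: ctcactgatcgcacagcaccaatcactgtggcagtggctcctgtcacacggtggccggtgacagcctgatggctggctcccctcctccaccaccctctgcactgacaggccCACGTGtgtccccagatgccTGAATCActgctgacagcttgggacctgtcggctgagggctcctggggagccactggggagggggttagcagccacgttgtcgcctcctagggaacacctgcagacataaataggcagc
Pmch: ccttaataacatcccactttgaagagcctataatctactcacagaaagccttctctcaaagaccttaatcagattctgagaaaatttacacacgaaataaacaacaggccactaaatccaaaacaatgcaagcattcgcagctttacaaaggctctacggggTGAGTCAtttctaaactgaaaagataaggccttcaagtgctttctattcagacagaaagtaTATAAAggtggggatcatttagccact

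Both windows hold 1 match to the loose AP-1 pattern, which 6.75% of 32817 windows of this length also hold. The letters are TGAATCA in Avp and TGAGTCA in Pmch. Only the Pmch match has G or C at N, the stricter form of the site, which was not searched alone. The match starts 119 bases before the RefSeq start of Avp, which lies 34 bases upstream of the GENCODE start. In Pmch it starts 88 bases before the start, which is the same in both annotations. The E-box CACGTG was found in the Avp window alone, 139 bases before the start, against 6.02% of all windows. The TATA box TATAAA was found in the Pmch window alone, 27 bases before the start, against 12.4% of all windows. The cAMP response element TGACGTCA and its shorter form TGACG, which overlaps it, were in neither window; they were in 1.55% and 17.7% of all windows. G and C made up 62.4% of the Avp window and 38.4% of the Pmch window, against a median of 52.4%. A match is a description of the letters only.

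The cells differed in depth, from 1021 gene molecules in cell 1 to 26466 in cell 5, with a median of 9573. Cell 5 was 3.38 times as deep as cell 9, which had 7827. Cell 9 was the only cell on lane 4 and gave 614 spike-in molecules, against 1962 to 2184 in the 8 cells on lane 3, so lane and cell cannot be told apart for it. Levels are given as molecules per 10000 gene molecules of the cell. Plain counts are not corrected for depth, so a lower count in cell 9 than in cell 5 can be a higher level. Intervals are exact 95% Poisson intervals and cover counting error only. The limit set for a count of 0, 3 molecules, was 29.4 per 10000 in cell 1, 8.84 in cell 6, and 1.13 to 4.19 in the other 7 cells.

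Crh gave 0 molecules in cells 1, 2, 4, 6 and 7, 2 each in cells 3 and 8, 13 in cell 5 and 19 in cell 9. The 2 cells just below the threshold of 10 thus held 2 molecules each, against 13 and 19 in the 2 cells above it. These are counts, not levels, and cell 5 was the deepest cell. At the depth of cell 9, cell 5 would be expected to give 3.84 Crh molecules, below the threshold. Cells 5 and 9 together held 32 of the 36 Crh molecules (88.9%) and 37.5% of all gene molecules. They were chosen by their Crh counts, so a high share of Crh follows from the rule and is no evidence. The level was 24.3 per 10000 in cell 9 (interval 14.6 to 37.9), 4.91 in cell 5 (2.62 to 8.40), 1.86 in cell 3 (0.226 to 6.73) and 1.52 in cell 8 (0.184 to 5.48). Only the step from cell 9 to cell 5 exceeded counting error: the level in cell 9 was 4.94 times that in cell 5 (exact conditional interval 2.32 to 10.9). The step from cell 5 to cell 3 was 2.64-fold (0.597 to 24.1), and cells 3 and 8 did not differ beyond counting error (1.23-fold, 0.0890 to 16.9).

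The 5 cells without Crh differ in what their 0 can show. At the Crh level of cell 9, cells 2, 4 and 7 would be expected to hold 23.2, 29.2 and 17.4 molecules, and 0 were found. At the lower level of cell 5 the expected numbers were 4.70, 5.91 and 3.52. Cell 1 and cell 6 were too shallow for such a statement at the level of cell 5, with 0.502 and 1.67 molecules expected.

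**Figure D1:**
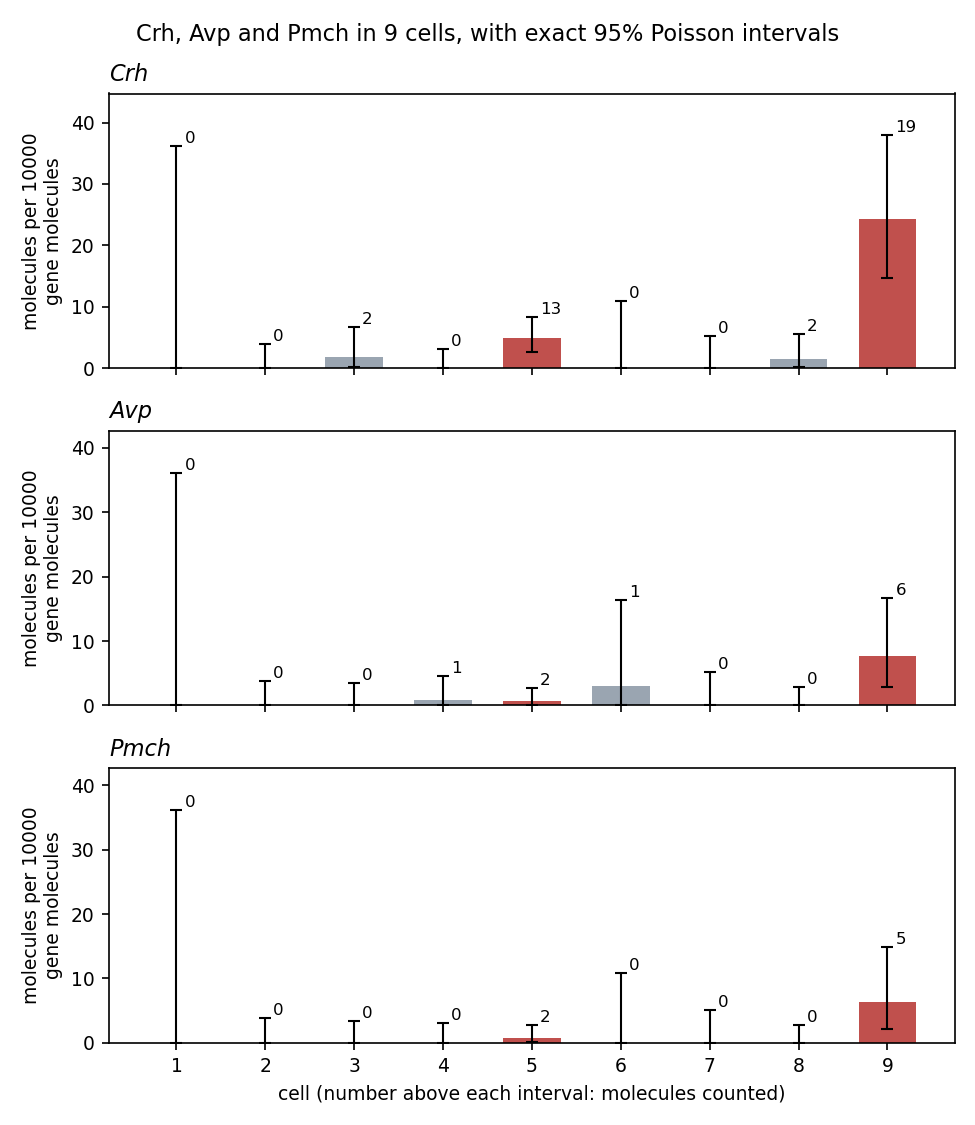
Level of Crh, Avp and Pmch (vertical axis, molecules per 10000 gene molecules) in each of 9 cells (horizontal axis); bars are single-cell values, vertical lines exact 95% Poisson intervals, and numbers the molecules counted. Cells 5 and 9, in red, were chosen by their Crh counts and hold 32 of 36 Crh molecules. The interval of cell 1, with 1021 gene molecules, reaches 36.1 for a count of 0.

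Avp gave 6 molecules in cell 9, 2 in cell 5, 1 each in cells 4 and 6, and 0 in cells 1, 2, 3, 7 and 8. The highest level was in cell 9, at 7.67 per 10000 (2.81 to 16.7), followed by 2.95 in cell 6 (0.0746 to 16.4), 0.832 in cell 4 and 0.756 in cell 5. The level in cell 9 was 10.1 times that in cell 5 (1.81 to 103) and 9.22 times that in cell 4 (1.12 to 424). It did not differ beyond counting error from that in the shallow cell 6 (2.60-fold, 0.316 to 120), where the level rests on 1 molecule. Cells 4, 5 and 6 did not differ from each other beyond counting error.

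Pmch was counted in cells 5 and 9 alone, at 2 and 5 molecules. The level was 6.39 per 10000 in cell 9 (2.07 to 14.9) and 0.756 in cell 5 (0.0915 to 2.73), a ratio of 8.45 (1.38 to 88.8). At the level of cell 9, the other cells apart from cells 1 and 6 would be expected to hold 4.57 to 8.42 molecules, and none held any. At the level of cell 5 less than 1 molecule was expected in each of them, so absence at that level was not detectable at this depth. Of all gene rows, 156 (0.640%) were detected in cells 5 and 9 and in no other cell, and Pmch is among the 39 of these with at least 2 molecules in each. The rule for cells 5 and 9 did not use Pmch, but the gene was chosen with its counts known.

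All 3 genes were found together in 2 of 9 cells (22.2%, exact Clopper-Pearson interval 2.81 to 60.0%), cells 5 and 9, which were chosen by their Crh counts. Crh and Avp, Crh and Pmch, and Avp and Pmch each shared these same 2 cells. Cells 3 and 8 held Crh without the other genes, and cells 4 and 6 held Avp without the other genes. Cells 1, 2 and 7 held none of the 3. The 3 genes together made up 0.383% of gene molecules in cell 9 (30 molecules), 0.0642% in cell 5 (17 molecules) and at most 0.0295% in any other cell. Detection follows depth in part: at the depth of cell 9, cell 5 would be expected to give 3.84 Crh molecules and 0.591 each of Avp and Pmch.

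Scgn, the secretagogin gene by which the cells are labelled, was detected in 5 of 9 cells, with 1 molecule each in cells 2, 5 and 9, 3 in cell 8 and 11 in cell 3; its product is a calcium sensor. The label thus has a Scgn molecule behind it in both cells 5 and 9, and none in cells 1, 4, 6 and 7. All 4 cells with Crh held Scgn, as did 2 of the 4 cells with Avp. Oxt, the neighbour of Avp, was found in all 4 cells with Avp and in 8 cells in all, while Crh and Oxt shared 3 cells. Sst, the somatostatin gene, had 1 molecule in cell 5 and 0 in cell 9, whereas cell 3, with 2 Crh molecules, held 111.

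The marker genes of other cell types set cells 5 and 9 apart. All 14 oligodendrocyte markers listed were detected in cell 5, at 610 molecules or 230 per 10000, with 35 from Mbp, the myelin basic protein gene, and 26 from Mog, a glycoprotein gene of the myelin surface. In cell 9, 3 of the 14 were detected, at 5 molecules or 6.39 per 10000, and the other 7 cells ranged from 0 to 1.66 per 10000; Mbp, Mog, Mag and Mobp were at 0 in every cell but cell 5. Cell 9 held 0 molecules of the astrocyte, ependymal, endothelial, microglia, mural, fibroblast-like, blood and oligodendrocyte precursor markers. Of the 14 neuron markers, 11 were detected in cell 9, at 79 molecules or 101 per 10000. Their sum was 110 per 10000 in cell 5 and 28.8 to 607 in the other 7 cells. These sums depend on Meg3, a non-coding RNA, which gave 61 of the 62 marker molecules in cell 1. It gave 75 of 92 in cell 7, 33 of 43 in cell 6 and 28 of 37 in cell 4. The numbers were 80 of 158 in cell 2, 69 of 133 in cell 3 and 12 of 38 in cell 8. In cell 5 it gave 41 of 290 and in cell 9 14 of 79. Between cells 5 and 9 single markers differed: 8 had the higher level in cell 5 and 5 in cell 9. Cell 8, with 2 Crh molecules, held 350 molecules of ependymal and tanycyte markers, and cell 4, with 1 Avp molecule, held 2507 of blood markers. The part of these other cell types in the peptide counts of cells 4, 5 and 8 was not tested. Without cells 4, 5, 7 and 8, which carry markers of another cell type, Crh and Avp were each detected in 2 cells and Pmch in 1.

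Few of the other peptide genes were detected in any of the 9 cells. Of 46 listed, Oxt alone was detected in both cells 5 and 9, 3 were detected in cell 5 alone (Sst, Tac1 and the proopiomelanocortin gene Pomc, with 2 molecules) and 42 in neither. Oxt had 8 molecules in cell 5 and 5 in cell 9, or 3.02 and 6.39 per 10000. Over all gene rows, 8.33% were detected in both cells, against 2.17% of this list. As 35 of the 46 genes were in no cell at all, nothing particular to cells 5 and 9 is read from that share.

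No receptor gene of the 3 hormones was detected in both cells; with 8.33% of all gene rows detected in both, nothing particular to these short lists is read from that. Of 6 genes for CRH and urocortin peptides, their receptors and the CRH-binding protein, Crhr1, the main pituitary CRH receptor, had 2 molecules in cell 5, Crhbp, which encodes the binding protein, had 1 in cell 2, and 4 had none in any cell. Of 5 receptor genes for vasopressin, oxytocin and MCH, Mchr1, the MCH receptor, had 1 molecule in cell 5, and Avpr1a, Avpr1b, Avpr2 and Oxtr had none in any cell. Cell 9 held no molecule of either list, below the limit of 3.83 per 10000 set for a count of 0 in it. Among 25 further receptor genes of hormones and transmitters that act on the axis, 2 were detected in both cells (8.00%), a share near that of all rows. Nr3c1, the glucocorticoid receptor through which the feedback acts, had 8 molecules in cell 5 and 1 in cell 9, and the cannabinoid receptor gene Cnr1 had 1 in each. Sstr2, a somatostatin receptor, had 3 molecules in cell 9 and none elsewhere, and the serotonin receptor gene Htr2c had 1 in cell 9 and 1 in cell 6.

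**Figure D2:**
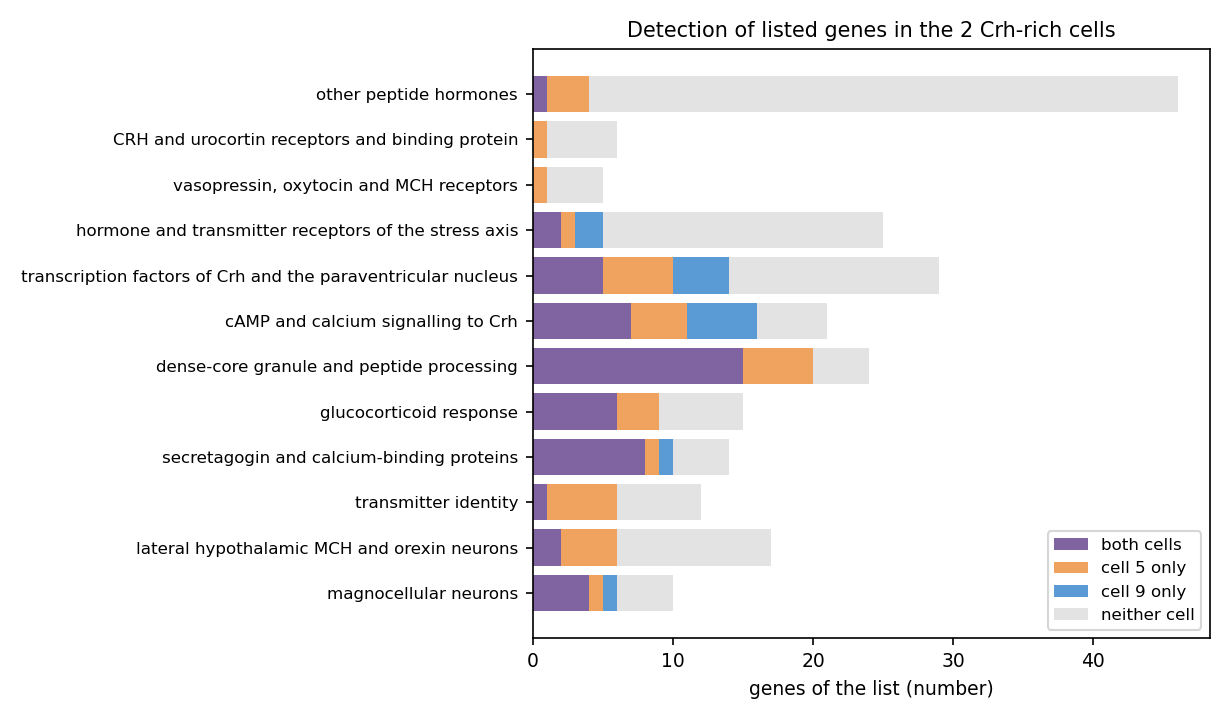
Number of genes (horizontal axis) of each of 12 lists (vertical axis) with at least 1 molecule in both of cells 5 and 9, in cell 5 alone, in cell 9 alone or in neither. The granule and processing list has 15 of 24 genes in both cells, and the lists of CRH, vasopressin and MCH receptors have none. Over all gene rows 8.33% were detected in both cells, so nothing particular to the short receptor lists is read from that.

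Of 29 transcription factors listed, 5 were detected in both (Pou3f2, Nr4a1, Fos, Jun and Egr1), 5 in cell 5 alone, 4 in cell 9 alone and 15 in neither. Over all gene rows, the 2031 detected in both cells were 36.6% of those detected in cell 5 and 72.1% of those in cell 9, so nothing particular to these factors is read from the split. Pou3f2, a POU factor needed for CRH and vasopressin neurons to form, had 2 molecules in each. Arnt2, the partner of SIM1 in forming this nucleus, had 7 molecules in cell 9 and 4 in cell 8, with 0 in the other 7 cells. Sim1 itself had 1 molecule in each of the same cells, 8 and 9. Sik1, a kinase that restrains the CREB coactivators, and Crem, a cAMP-responsive factor, had 3 molecules each in cell 9 and 0 in cell 5. Jun, an AP-1 subunit, had 13 molecules in cell 9 and 5 in cell 5, and Fos, its partner, had 5 and 7. As levels these were 16.6 and 1.89 per 10000 for Jun and 6.39 and 2.64 for Fos. Both were also found in all 7 other cells, and the level of Fos was higher in each of those. Egr1, another activity-induced factor, had 7 and 9 molecules, or 8.94 and 3.40 per 10000. Nr4a1, an orphan nuclear receptor that acts on Crh, had 2 and 1. The list summed to 12.1 per 10000 in cell 5 and 54.9 in cell 9, against 34.5 to 110 in the other cells.

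Signalling genes through which cAMP and calcium reach Crh were detected in both cells for 7 of 21 listed (33.3%), against 8.33% of all gene rows. The share was 22.7% over the 207 genes of all lists, and 18 of the 21 were also detected among the other cells. In cell 5 alone 4 were detected, and in cell 9 alone 5. Gnas, which encodes the stimulatory G protein alpha subunit, had 29 molecules in cell 9 and 40 in cell 5, a level 2.45 times higher in cell 9 (1.47 to 4.05). Prkacb, a catalytic subunit of protein kinase A, had 10 and 23 molecules, or 12.8 and 8.69 per 10000. Prkaca, the other catalytic subunit listed, had 4 and 3, and 1 molecule in cell 8. The regulatory subunit genes Prkar1b and Prkar1a had 6 and 3 molecules in cell 9 against 22 and 16 in cell 5, and of 2 genes for a calcium/calmodulin-dependent kinase Camk2b had 1 against 5 and Camk2a 4 against 2. Summed over the list, cell 9 had 81.8 per 10000 and cell 5 44.6, against 12.6 to 54.3 in the other cells. Gnas alone gave 37.1 of the 81.8. Directions were split, with the higher level in cell 9 for 9 genes and in cell 5 for 7.

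Genes of dense-core granules and peptide processing were detected in both cells for 15 of 24 (62.5%), the highest share among the 12 gene lists, against 8.33% of all gene rows; the neuron marker list reached 78.6%. The list summed to 207 per 10000 in cell 9 and 103 in cell 5, and to between 6.65 and 120 in the other cells, where cell 3 was highest. Scg2, the secretogranin II gene, had 37 molecules in cell 9 and 21 in cell 5, so that its level was 5.96 times higher in cell 9 (3.40 to 10.7). Cpe, carboxypeptidase E, which trims basic residues from cut precursors, had 17 and 23 molecules, a 2.50-fold higher level in cell 9 (1.25 to 4.89). Resp18, a granule protein gene, had 52 and 107 molecules, a ratio of 1.64 (1.16 to 2.31). Pcsk2, a prohormone convertase gene, had 7 and 13 molecules, Scg5, whose product is the chaperone of that convertase, 15 and 28, and the cathepsin L gene Ctsl 4 and 16. As levels these were 8.94 and 4.91 per 10000 for Pcsk2, 19.2 and 10.6 for Scg5 and 5.11 and 6.05 for Ctsl. Pcsk1, the other main neuroendocrine convertase, had 0 in both cells and 1 molecule in cell 6. Pam, the enzyme that amidates CRH and vasopressin at their ends, had 4 molecules in cell 5 and 0 in cell 9. Both directions occurred in the list: 10 of its genes had the higher level in cell 9 and 10 in cell 5, among them Chgb, the chromogranin B gene, with 1 molecule in cell 9 and 8 in cell 5, Cadps, a granule priming factor gene, with 1 and 6, and the peptide precursor gene Vgf, with 0 and 5. Lane and cell cannot be told apart.

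Of 15 genes listed for the glucocorticoid response, the receptor and its chaperones included, 6 were detected in both cells (40.0%). The share was 8.33% for all gene rows and 22.7% for the 207 listed genes, and no response is read from it. The 6 include Nr3c1 and the receptor's chaperones Hsp90ab1 and Hsp90aa1, with 27 and 16 molecules in cell 9 and 120 and 96 in cell 5. The others are the chaperones' partner Fkbp4 (3 and 5), the clock gene Per1 (1 and 2) and the phosphatase gene Dusp1 (1 in each). Tsc22d3, Sgk1 and Nfkbia had 2, 2 and 1 in cell 5 and 0 in cell 9, and 6 genes were in neither cell. Among the latter, Fkbp5, a feedback target gene, had none in any cell. The level was higher in cell 9 for 3 genes of the list and in cell 5 for 6. Of 14 calcium-binding protein genes, 8 were detected in both (57.1%, against the same 8.33%), among them Scgn. Calm2 and Calm3, which encode calmodulin, had 22 and 16 molecules in cell 9 and 67 and 21 in cell 5. As levels these were 28.1 and 20.4 per 10000 in cell 9, against 25.3 and 7.93 in cell 5. Calb1, the calbindin gene, had 2 molecules against 7, and the neuronal calcium sensor genes Ncald and Hpcal1 had 4 and 1 against 5 and 4. Their levels were 2.56 against 2.64 for Calb1, 5.11 against 1.89 for Ncald and 1.28 against 1.51 for Hpcal1. In the list, 6 genes had the higher level in cell 9 and 4 in cell 5. Among 12 transmitter genes, 1 was detected in both (8.33%, equal to the share of all gene rows). It was Slc17a6, the vesicular glutamate transporter gene, with 2 molecules in each. The GABA synthesis genes Gad1 and Gad2 had 19 and 16 molecules in cell 5 and 0 in cell 9.

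Of 17 genes listed for the lateral hypothalamic neurons in which Pmch is best known, Scg2 and the cadherin gene Cdh13 were detected in both cells (11.8%, near the 8.33% of all gene rows), 4 in cell 5 alone and 11 in neither. Cartpt, the CART peptide gene found in many MCH neurons, had 0 in cells 5 and 9, 8 in cell 3 and 3 in cell 8. Hcrt, the orexin gene, Tacr3, a tachykinin receptor gene, and Lhx9, a transcription factor gene, had 0 in all 9 cells. Of 10 magnocellular genes, which include Avp and Oxt, 4 were detected in both cells (40.0%, against 8.33% of all gene rows). Avp, counted among the 4, was itself chosen by its counts. Besides Avp and Oxt, they were Nucb2, the nesfatin precursor gene, with 2 molecules in each, and the imprinted gene Peg3, with 24 in cell 5 and 3 in cell 9. The summed level of this list in each of cells 5 and 9 lay within the range of the other cells, 1.52 to 78.4 per 10000. Nothing particular to cells 5 and 9 is therefore read from the 40.0%.

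**Figure D3:**
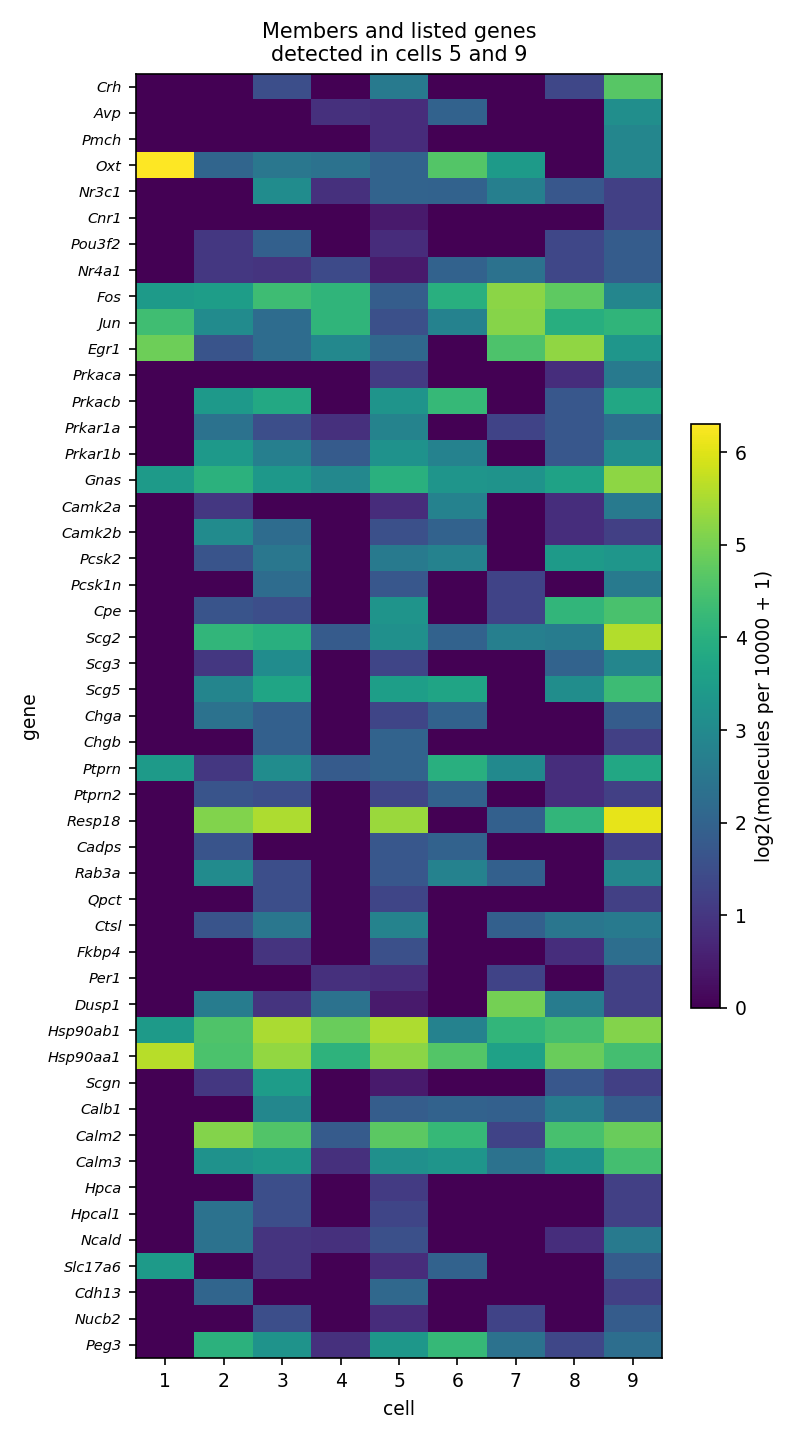
Level of the 3 peptide genes and of listed genes detected in both cells 5 and 9 (rows) in 9 cells (columns); colour gives log2(molecules per 10000 + 1). Crh, Avp and Pmch are each brightest in cell 9, while the heat shock genes Hsp90ab1 and Hsp90aa1 were detected in all 9 cells.

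At least 5 molecules in both cells 5 and 9 were counted for 289 gene rows, or 1.19% of all. They are 22.2% of the 1301 rows with at least 5 molecules in cell 5 and 75.7% of the 382 in cell 9. Of the 3 peptide genes, Crh is among them; Avp, with 2 molecules in cell 5, and Pmch, with 2, are not. In 81 of the 289 the lower count was exactly 5, and a further 119 rows stood just outside, with 4. The 289 held 33.4% of the molecules of cell 5 and 37.4% of those of cell 9, and 38 of them were mitochondrially encoded (13) or had a ribosomal-protein symbol of Rpl or Rps followed by a digit (25), a rule that leaves Rplp1 and Fau among the others.

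Most of these genes were not particular to the 2 cells. Of the 289, 179 (61.9%) also reached 5 molecules in cell 3, as 156 did in cell 2 and 150 in cell 8, while 50 reached 5 molecules in none of the other 7 cells. Outside these 38, the 15 with the highest level in the lower of the 2 cells included Resp18, the chaperone genes Hsp90ab1, Hsp90aa1 and Hspa8, the non-coding RNA Malat1, the tubulin gene Tuba1a, Calm2, the actin genes Actg1 and Actb, Tecr, an enzyme of long-chain fatty acid synthesis, the stathmin-family gene Stmn3, Fau, a ribosomal fusion protein gene, Ndufa4 and Slc25a4, both of mitochondrial energy supply. Malat1 had 24 molecules in cell 9 and 912 in cell 5, the lowest ratio of the 289, at 0.0890. Tecr had 35 and 54, a ratio of 2.19, and Ndufa4 had 33 and 44, a ratio of 2.54.

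Among the 289, 5 had at most 1 molecule in the other 7 cells together. Tceal5, of the TCEAL/BEX family, had 10 molecules in cell 5 and 8 in cell 9 and none elsewhere. Lrrn3, a leucine-rich repeat membrane protein gene, had 5 and 6 and none elsewhere. 1700037H04Rik had 6 and 7, Phpt1, a phosphohistidine phosphatase gene, had 5 and 6, and the initiation factor gene Eif4h had 5 and 5, each with 1 molecule in another cell. Crh itself had 4 molecules elsewhere.

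Within the 289, the level in cell 9 relative to cell 5 had a median of 1.64 and quartiles of 0.922 and 2.77. Crh, at 4.94, was exceeded by 9 genes, among them Jun at 8.79, the G protein gamma subunit gene Gng2 at 7.44 and Scg2 at 5.96. The requirement of 5 molecules asks for a higher level in the shallower cell 9, which shapes these ratios.

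**Figure D4:**
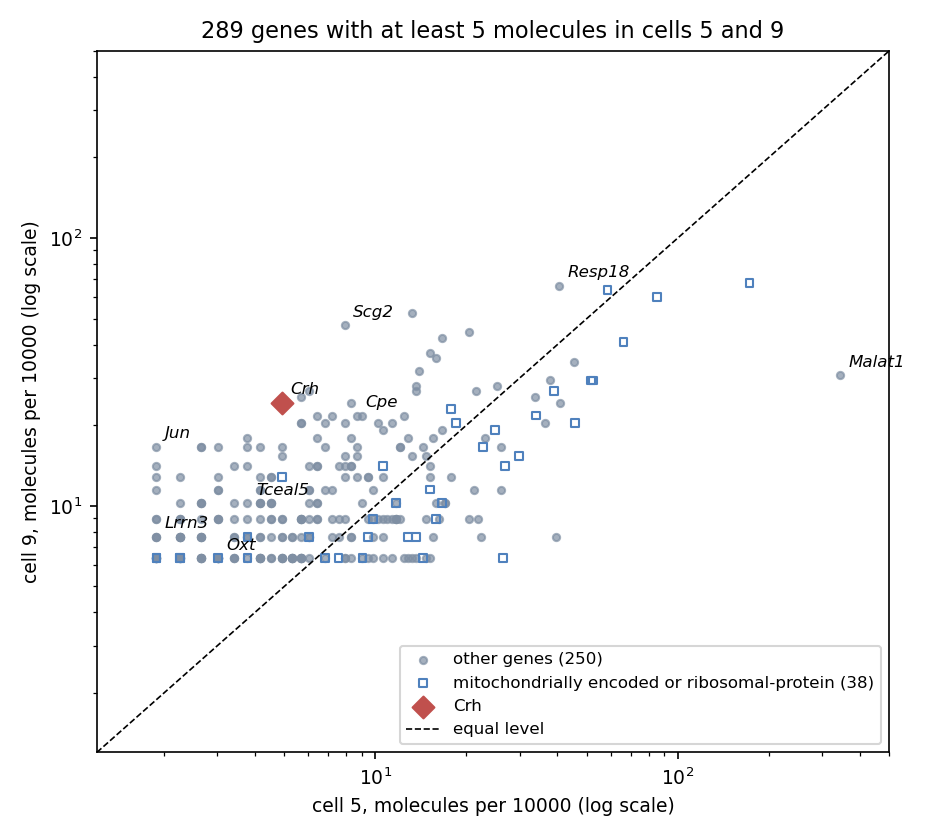
Level in cell 9 (vertical axis) against cell 5 (horizontal axis) for the 289 genes with at least 5 molecules in both, molecules per 10000 on log axes; each point is a gene, squares are mitochondrially encoded or ribosomal-protein genes, and the dashed line marks equal levels. Crh (diamond) lies above the line at 24.3 against 4.91, near Scg2, and Malat1 lies farthest below it.

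Across the 9 cells, the genes whose pattern was most like that of Crh were found by Pearson correlation of log2(molecules per 10000 + 1), over 768 other gene rows with at least 20 molecules; the cells share their depth differences, and no p is given. The 10 highest, from 0.933 to 0.862, were Syp, Ly6h, Pld3, Erh, Dlk1, Rnasek, Spint2, Atp5g2, Mdh2 and Gabarapl1, against a median of 0.345 over all rows. Syp, which encodes the vesicle protein synaptophysin, had 10 molecules in cell 5, 7 in cell 9, 3 in cell 3 and none elsewhere. Ly6h, a modulator of nicotinic receptors, had 10, 11 and 4 in these cells and 1 each in cells 7 and 8. Pld3, a lysosomal exonuclease gene, had 16, 21 and 5, and 1 in cell 7. Dlk1, an imprinted gene for a Notch-related membrane protein, had 11, 5 and 3, and 4 in other cells. Of the 10 genes, 3 remained among the 10 highest without cell 5 and 2 without cell 9, so the ranking rests on these cells. It also rests on cell 2, without which 4 remained.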

How the data were processed

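Whole-number counts for 9 cells were deposited by the authors in 1 table of 24378 gene rows and 92 rows of spike-ins, and are called molecules after the deposit's name; 0 columns were left unassigned. Per the labels' protocols, tissue from slices 300 µm thick was dissociated with papain, a Fluidigm C1 chip (up to 96 chambers) captured the cells, and cDNA had 21 PCR cycles. The submitters' processing notes name mm10 and Bowtie. How duplicate reads were collapsed, the annotation and the strand setting are not given in the sources used here, nor is how these 9 cells were picked.

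Rows were used as deposited; a listed gene with several numbered loci was given its highest count per cell. Levels are counts per 10000 gene molecules. Intervals are 95% (Poisson, Clopper-Pearson, and conditional binomial for ratios). With 1 sample no comparison was tested, and doublets were not called; Dixon's limit was used to mark values for a closer look, not as a test over replicates. Depth was 1021 to 26466 molecules per cell.

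The 3 genes, the gene and marker lists and the rules were chosen with earlier results of these data known. Named genes were the 3 members, Scgn, Oxt and Sst, listed genes detected in both cells 5 and 9 (up to 6 a list), the hormone receptors, the 15 genes highest in the lower of the 2 cells, those with at most 1 molecule elsewhere, and the 10 most correlated with Crh; other genes, and all other markers, were picked after their values were seen; some genes are not reported here. The correlation step was tested on simulated data, where the changed rows came from genes with at least 50 molecules. None of the 10 genes most correlated with Crh had that many, so the simulation did not cover their range. Alternatives were detection at 2 or 3 molecules, other minimum counts, thinning, other totals, leaving out cells, other correlation settings and, chosen after seeing the data, leaving out cells 4, 5, 7 and 8 together. Computation used Python 3.11.15 with scipy 1.17.1, numpy 2.4.6 and pandas 2.3.3; matplotlib 3.10.9 drew the figures.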

Additional observations from a re-analysis of the deposited data

Results flagged for a closer look

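In 8 of 10 measures looked at, the highest or lowest of the 9 cells was separated from its nearest neighbour by a larger part of the range than Dixon's 95% limit allows. Chance flags about 1 in 20 groups of independent values with a normal spread, which sparse counts are not. Cells are not replicates, and Crh, Avp and Pmch were chosen with these counts known, so their marks add no evidence. Cell 9 stood apart for Crh (24.3 per 10000), Avp (7.67 per 10000), Pmch (6.39 per 10000) and spike-in molecules (614). Cell 3 stood apart for Scgn (10.3 per 10000) and Sst (103 per 10000). Cell 1, the shallowest, stood apart for Oxt (78.4 per 10000, from 8 molecules), and cell 5 for its 26466 gene molecules.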

How the results depend on the processing

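The counts of cells are small, and stricter detection lowers them. With at least 3 molecules, Crh was detected in 2 cells and Avp, Pmch, Crh with Avp, and all 3 genes in 1; with at least 2 molecules Avp was detected in 2 cells and the other counts did not change. With every cell thinned to 1021 molecules, Crh was detected in 2 cells, Avp, Pmch and Crh with Avp in 1, and all 3 genes in 0. Without cells 4, 5, 7 and 8, Crh and Avp were each detected in 2 cells, and Pmch, Crh with Avp, and all 3 genes in 1. Leaving out each cell in turn gave 3 to 4 cells for Crh and for Avp, and 1 to 2 for Pmch, for Crh with Avp and for all 3 genes, the 1 being without cell 5 or without cell 9. The 289 genes in both cells were 607 with at least 3 molecules, 91 with at least 10, 157 (all among the 289) in 1 random thinning of cell 5 to the depth of cell 9, and 121 when cells 3 and 8 had to reach 5 molecules too. The ratio of cell 9 to cell 5 kept within its interval under 3 other totals for each gene, from 4.71 to 5.20 for Crh, 9.67 to 10.7 for Avp and 8.05 to 8.89 for Pmch. Of the 10 genes most like Crh, 5 stayed among the 10 highest with a pseudocount of 0.1, 4 by Spearman correlation, 0 with at least 50 molecules, where none of them qualifies, and 2 to 8 when each cell was left out. Genes detected in both cells over all lists numbered 47 of 207, 33 with at least 2 molecules and 38 with cell 5 thinned. No paired analysis was possible because all cells belong to 1 group.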
